A study of Homo sapiens with 6 samples.

Results

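SLC7A5 and SLC1A5, which encode a pair of plasma membrane amino acid transporters, were followed through 6 RNA sequencing libraries of LX-2 cells, an established human hepatic stellate cell line. Their levels were read from the deposited counts of non-coding rows whose exons lay across theirs on the other strand, by at least 50 bp and by that much across no other gene. Of 1699 genes that could be read in this way, 1443 passed a filter on low counts, and both transporters were among them. They were chosen by these same levels, which lay below DMSO after each treatment, so their differences from DMSO are described without a test.

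The groups were cells given FEBJ, an extract from fruit of Brucea javanica that holds many compounds, cells given cynaroside, a glucoside of the flavone luteolin, and cells given DMSO, each for 24 h and with 2 libraries. The labels gave all groups as wild type and named neither a dose nor a separate culture for each library. Every p-value thus rests on the spread between libraries, which may be technical. All material came from 1 cell line, so nothing here covers other stellate cells.

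Gene rows held 1599000 to 4709317 counts per library, 5.48 to 6.12% of all counts, and the opposite-strand reading took 36.9 to 42.9% of those. The strand setting of the counting step was not given in the sources used here, so reads of a gene and of an antisense partner cannot be told apart. In their own rows, 11 stellate cell markers summed to 146 to 176 counts with FEBJ, 227 to 489 with cynaroside and 2167 to 3139 with DMSO, and DES, COL1A2 and LRAT were at 0 in all libraries. In the opposite-strand reading (CPM, counts scaled to 1000000 per library; SD, n = 2 each) 4 of these markers could be tested. The filament gene VIM averaged 67200 ± 214 CPM with FEBJ, 99750 ± 206 CPM with cynaroside and 126500 ± 244 CPM with DMSO. The matrix gene SPARC had 31.4 and 38 CPM with FEBJ, 424.5 and 432.4 CPM with cynaroside, and 583.8 and 599.7 CPM with DMSO. ACTA2, the actin of activated stellate cells, had 309.5 and 299.6 CPM with FEBJ, 487.3 and 599.8 CPM with cynaroside, and 280.7 and 269.9 CPM with DMSO. THY1 had 554.2 and 524 CPM with FEBJ, 971.6 and 1000 CPM with cynaroside, and 869.6 and 879.4 CPM with DMSO. The cynaroside libraries were thus below DMSO for VIM and SPARC and above it for ACTA2 and THY1, the last without passing the test (edgeR, adjusted p = 0.0864). Of the other cell types, 7 hepatocyte markers summed to 34 to 42 counts with FEBJ, 0 to 1 with cynaroside and 1 to 2 with DMSO, with ALB, TTR and FGB at 0. For 6 macrophage markers the sums were 26 to 43 with FEBJ, 10 to 17 with cynaroside and 9 to 11 with DMSO, with CD163 at 0. For 6 endothelial markers they were 426 to 563 with FEBJ, 247 to 702 with cynaroside and 354 to 525 with DMSO, with PECAM1, VWF and CDH5 at 0. For 6 epithelial markers they were 3873 to 5367 with FEBJ, 966 to 2675 with cynaroside and 4560 to 6670 with DMSO, with EPCAM and KRT19 at 0. All marker sums are raw counts of own rows, not scaled to library size, so they do not compare groups. The part of other cell types in the levels below was not tested.

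SLC7A5, also called LAT1, is the light chain of a heterodimer. It carries leucine and other large neutral amino acids across the membrane in exchange for an internal amino acid, often glutamine, and it reaches the surface only when bound to the heavy chain SLC3A2. SLC1A5, also called ASCT2, is a sodium-dependent exchanger of small neutral amino acids and a main entry route for glutamine in many dividing cells. Leucine and glutamine both feed the activation of mTORC1, the kinase complex that couples amino acid supply to protein synthesis. Transcription of amino acid transporter genes is known to respond to ATF4, the effector of the amino acid shortage response, and SLC7A5 also to MYC and to hypoxia-inducible factors.

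SLC7A5 (ENSG00000103257) lies at chr16:87830023-87869488 on the minus strand of GRCh38, in GENCODE 29. Its level was read from 1 row, AC126696.2 (ENSG00000260466), whose 2 exons at chr16:87836532-87837663 run on the plus strand. Of the 522 bp of that row, 116 bp lay over coding sequence in exon 8 of 10 of the longest covered transcript, and in all 271 bp lay over some exon of SLC7A5 and 251 bp over its introns. Both of the 2 coding transcripts of SLC7A5 were covered.

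SLC1A5 (ENSG00000105281) lies at chr19:46774883-46788594 on the minus strand. It was read from AC008622.2 (ENSG00000275719), a row with 1 exon of 1229 bp at chr19:46787815-46789043 on the plus strand. That exon covered 780 bp of exon 1 of the transcript with the outermost start, of which 151 bp are coding, and ran on for 449 bp upstream of its start. It covered 1 of the 6 coding transcripts of SLC1A5, so transcripts that start further downstream were not counted in its level.

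Because each level rests on so short a stretch, the coding bases that were read are shown as the sense strand of GENCODE 29, with the start codon of SLC1A5 in capitals (SLC7A5 at chr16:87836532-87836647 and SLC1A5 at chr19:46787815-46787965, minus strand, GRCh38):
SLC7A5 exon 8: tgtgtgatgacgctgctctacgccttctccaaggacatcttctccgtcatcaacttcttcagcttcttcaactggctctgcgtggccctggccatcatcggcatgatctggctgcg
SLC1A5 exon 1: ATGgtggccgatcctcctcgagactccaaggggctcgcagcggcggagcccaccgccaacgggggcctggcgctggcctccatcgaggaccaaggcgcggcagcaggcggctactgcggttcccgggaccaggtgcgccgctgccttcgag
Neither row shared sequence with another gene at the length checked: 0 of 473 windows of 50 bases in the SLC7A5 row and 0 of 1180 in the SLC1A5 row occurred in the transcripts of other genes. The pseudogene rows SLC7A5P1 and SLC7A5P2 held 0 counts in all 6 libraries.

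**Figure D1:**
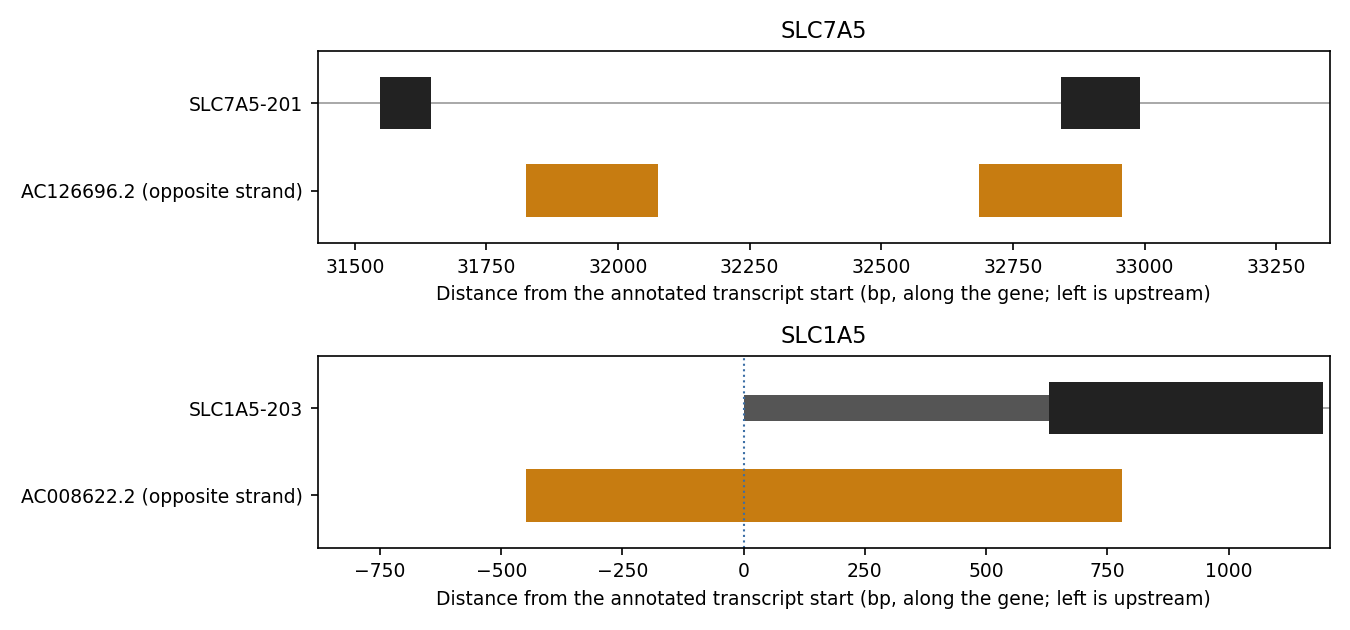
Position of the non-coding rows (orange) against the transcripts of SLC7A5 and SLC1A5 (black, coding; grey, not coding), in bp along the gene from the annotated start, marked by the dotted line for SLC1A5. The SLC7A5 row lies deep in the gene over exon 8, whereas the SLC1A5 row spans the start and reaches 449 bp upstream.

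The promoters are shown because both genes were chosen for moving the same way, and the SLC1A5 row spans its promoter. Each is the 250 bases upstream of a RefSeq start on GRCh38.p14, minus strand (chr16:87869508-87869757 and chr19:46788595-46788844), and capitals mark an E-box, a CCAAT box or a GC box, searched on both strands:
SLC7A5 promoter: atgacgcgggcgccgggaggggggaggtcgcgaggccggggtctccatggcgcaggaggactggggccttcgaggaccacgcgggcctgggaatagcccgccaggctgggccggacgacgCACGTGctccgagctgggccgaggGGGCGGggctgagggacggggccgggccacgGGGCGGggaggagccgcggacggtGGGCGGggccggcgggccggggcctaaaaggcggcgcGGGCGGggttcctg
SLC1A5 promoter: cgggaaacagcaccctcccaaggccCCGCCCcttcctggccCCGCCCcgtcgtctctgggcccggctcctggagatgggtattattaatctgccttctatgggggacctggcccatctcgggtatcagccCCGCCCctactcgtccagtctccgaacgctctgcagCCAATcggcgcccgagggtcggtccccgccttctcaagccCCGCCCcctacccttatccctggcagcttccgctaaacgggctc
The SLC7A5 promoter held 1 E-box, spelled CACGTG, 130 bases upstream of the start, and 4 GC boxes, spelled GGGCGG. The SLC1A5 promoter held 4 GC boxes and 1 CCAAT box, 84 bases upstream, and no E-box. Among 35116 RefSeq promoters of that length, an E-box occurred in 6.34%, a CCAAT box in 32% and a GC box in 42.6%. The core of the element bound by ATF4 (TGATGNAA), present in 3.14%, and TATAAA, present in 10.7%, were found in neither. The hypoxia core ACGTG, present in 18.5%, was found in the SLC7A5 window and not in the SLC1A5 window shown, and both matches overlap the E-box. SLC7A5 had a GC content of 79.6%, above that of 96.3% of the promoters, and SLC1A5 of 66.8%. RefSeq lists 2 further starts of SLC1A5, with an E-box 50 bases upstream of one, overlapped by 2 hypoxia cores (window chr19:46787294-46787543), and an ATF4 core 97 bases upstream of the other (chr19:46784815-46785064). A match is a run of letters and not evidence of binding.

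SLC7A5 stood at a similar level after either treatment and at about double that level with DMSO. The opposite-strand counts of SLC7A5 were 102 and 138 with FEBJ, 54 and 213 with cynaroside, and 202 and 305 with DMSO. Scaled to library size, these were 100.2 and 97.06 CPM with FEBJ, 80.71 and 108.4 CPM with cynaroside, and 205.5 and 212.7 CPM with DMSO. The FEBJ libraries lay between the cynaroside libraries, and all 4 treated libraries lay below both DMSO libraries. The means were 98.6 ± 2.23 CPM with FEBJ, 94.5 ± 19.6 CPM with cynaroside and 209 ± 5.13 CPM with DMSO (SD, n = 2 each). The log2 fold change from DMSO was -1.09 ± 0.20 (standard error) with FEBJ and -1.10 ± 0.20 with cynaroside, a level 2.12-fold and 2.14-fold lower. Counting error alone was 5.73 to 13.6% of the count, highest in cynaroside 1, the shallowest library. In bulk RNA from a culture, fewer cells of a kind and less RNA per cell cannot be told apart.

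SLC1A5 stood lowest with FEBJ, higher with cynaroside and highest with DMSO. Its opposite-strand counts were 820 and 1236 with FEBJ, 714 and 2061 with cynaroside, and 1789 and 2658 with DMSO. Its levels were 805.7 and 869.3 CPM with FEBJ, 1067 and 1048 CPM with cynaroside, and 1820 and 1854 CPM with DMSO. No 2 groups overlapped. The gap to DMSO was part of the choice of the gene, and the share of all genes without overlap was not counted. The means were 837.5 ± 45 CPM with FEBJ, 1058 ± 13.3 CPM with cynaroside and 1837 ± 24.1 CPM with DMSO (SD, n = 2 each). The log2 fold change from DMSO was -1.13 ± 0.07 with FEBJ and -0.80 ± 0.07 with cynaroside, 2.19-fold and 1.74-fold lower. Its counting error was 1.94 to 3.74%.

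**Figure D2:**
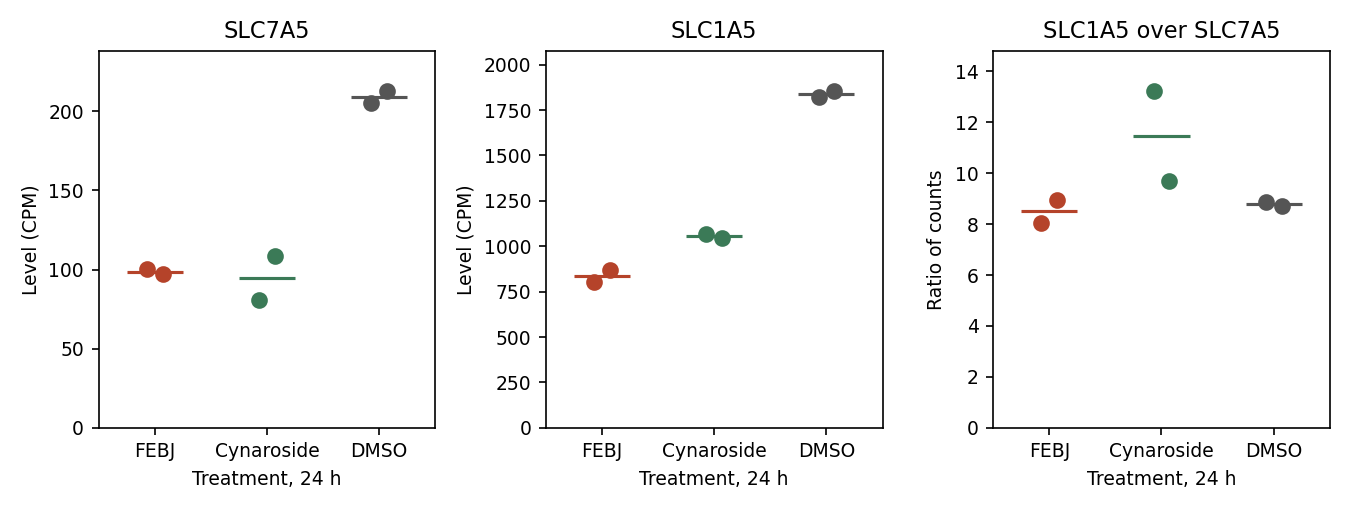
Levels of SLC7A5 and SLC1A5 in CPM of the opposite-strand reading, and the ratio of their counts, by treatment at 24 h; points are libraries and bars group means (n = 2). FEBJ and cynaroside overlap for SLC7A5, with means of 98.6 and 94.5 CPM, but not for SLC1A5, with means of 837.5 and 1058 CPM.

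FEBJ and cynaroside, a comparison that the choice of the genes did not use, could be tested (edgeR, quasi-likelihood, p-values adjusted by Benjamini and Hochberg over all 1443 genes). SLC1A5 was 1.26-fold lower with FEBJ than with cynaroside, a log2 difference of -0.33 ± 0.07 with a 95% interval of -0.47 to -0.19 (adjusted p = 8.66e-06), and both FEBJ libraries lay below both cynaroside libraries. In this comparison 34.2% of all genes were called lower and 35.3% higher, so a call by itself does not set SLC1A5 apart. For SLC7A5 no difference was detected: the log2 difference was 0.01 ± 0.21 (adjusted p = 0.965), and its interval of -0.40 to 0.42 holds differences of the size seen for SLC1A5.

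The ratio of the 2 genes' counts needs no scaling between libraries. SLC1A5 held 8.04 and 8.96 times the counts of SLC7A5 with FEBJ, 13.2 and 9.68 times with cynaroside, and 8.86 and 8.72 times with DMSO. The cynaroside libraries were the 2 highest, and the FEBJ and DMSO libraries overlapped. The log2 ratio of SLC7A5 to SLC1A5 was 0.41 higher with FEBJ than with cynaroside, against a pooled SD of 0.24 (two-sided exact permutation test, p = 0.33, the smallest that 2 libraries against 2 can give). Per kb of the row counted, SLC7A5 stood at 192 and 185.9 CPM with FEBJ, 154.6 and 207.7 CPM with cynaroside, and 393.7 and 407.5 CPM with DMSO. SLC1A5 stood at 655.6 and 707.3 CPM per kb with FEBJ, 868.2 and 852.7 with cynaroside, and 1481 and 1509 with DMSO. On this length-corrected scale SLC1A5 was above SLC7A5 in each of the 6 libraries.

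The transporters were not extreme among the genes read in this way. Between FEBJ and DMSO, 34.7% of the 1443 genes were called lower and 35.8% higher, and between cynaroside and DMSO 21.6% were called lower and 20.2% higher. Ordered from the lowest fold change, SLC7A5 ranked 276 of 1443 with FEBJ and 100 with cynaroside, and SLC1A5 ranked 262 and 176. In all, 161 genes (11.2%) were called lower than DMSO with both treatments, and 57 (3.95%) were lower by at least 0.75 on the log2 scale with both. These comparisons share the DMSO libraries. When libraries were scaled by all deposited gene rows in place of the opposite-strand reading, the median of all genes moved to 0.27 for FEBJ against DMSO and to 0.45 for cynaroside against DMSO. The calls for cynaroside against DMSO then split into 739 higher and 100 lower, against 291 higher and 311 lower. SLC7A5 remained below DMSO at -0.87 with FEBJ and -0.63 with cynaroside on that scale, and SLC1A5 at -0.92 and -0.34.

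The rows that carry the genes' own names held few counts. SLC7A5's own row held 2 and 0 counts with FEBJ, 2 and 13 with cynaroside, and 18 and 26 with DMSO, which was 0 to 8.91% of its opposite-strand count. SLC1A5's own row held 33 and 72 counts with FEBJ, 41 and 126 with cynaroside, and 69 and 98 with DMSO, or 3.69 to 6.11% of its opposite-strand count. In a fit of all 12012 deposited rows that passed the filter, the own row of SLC1A5 stood at 13.1 and 20.4 CPM with FEBJ, 28.1 and 31.8 CPM with cynaroside, and 24.4 and 23.8 CPM with DMSO. The cynaroside libraries were the highest here, whereas in the opposite-strand reading the DMSO libraries were. Between FEBJ and cynaroside the own row of SLC1A5 gave a log2 fold change of -0.83 ± 0.33 (edgeR, adjusted p = 0.0448), in a comparison where 20.4% of deposited rows were called lower. SLC7A5's own row did not pass that test (edgeR, adjusted p = 0.0902).

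The 5 genes with the pattern most like each transporter were taken from 1088 genes with a mean of at least 50 CPM, by the root mean square difference in log2 CPM over the 6 libraries after each gene was centred on its mean. SLC7A5 was most like IRF2BP2 at 0.113, a corepressor that binds IRF2, followed by RSKR at 0.160, the actin-binding protein CCDC88A at 0.160, CRISPLD2 at 0.165 and HIF1A at 0.178, the oxygen-regulated subunit of hypoxia-inducible factor. IRF2BP2 stood at 531.6 and 501.5 CPM with FEBJ, 502.2 and 539.2 CPM with cynaroside, and 1225 and 1180 CPM with DMSO. As for SLC7A5, the treated groups overlapped and the DMSO libraries lay above them. SLC1A5 was most like ADGRE5 at 0.061, the adhesion receptor CD97, followed by CDH2 at 0.065, which is N-cadherin, ZNF217 at 0.074, the histone variant H2AZ1 at 0.077 and the RNA-binding protein HNRNPK at 0.087. ADGRE5 stood at 213.2 and 248.3 CPM with FEBJ, 281 and 286.4 CPM with cynaroside, and 453.6 and 508.4 CPM with DMSO, in the same order of groups as SLC1A5. The transporters were less like each other, at 0.227: SLC1A5 ranked 14 by likeness to SLC7A5, and SLC7A5 ranked 41 by likeness to SLC1A5. The counting error of SLC7A5 was larger, up to 13.6% in cynaroside 1 with 54 counts, against at most 3.74% for SLC1A5. Its part in this distance was not tested.

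**Figure D3:**
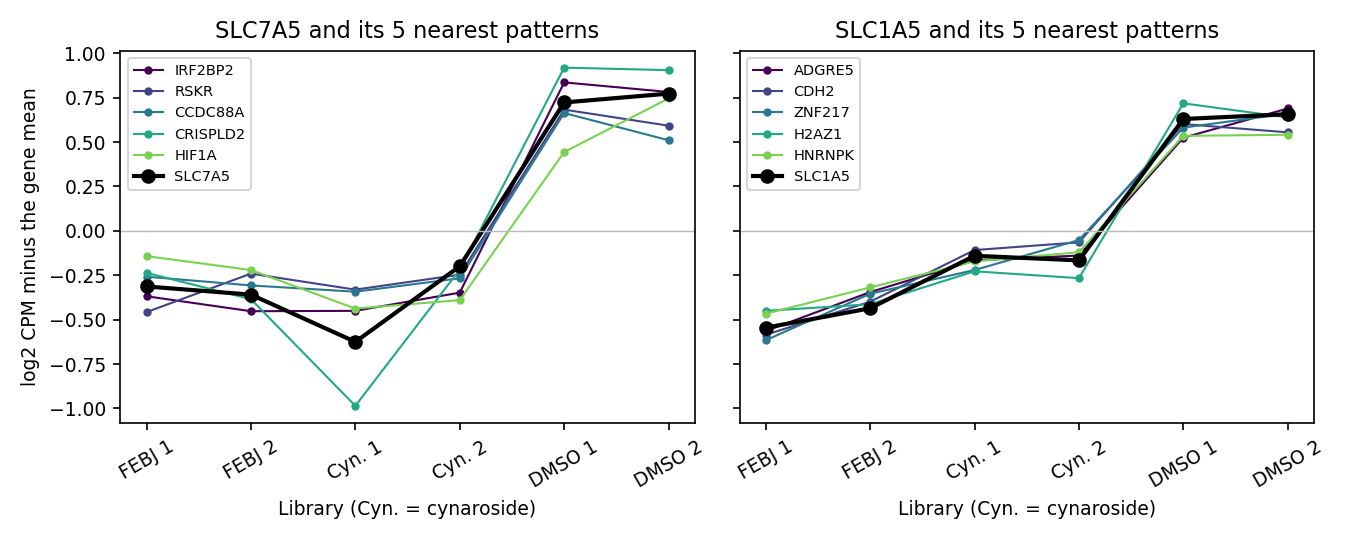
SLC7A5 and SLC1A5 (black) with the 5 genes nearest to each, as log2 CPM minus the gene's own mean (vertical axis) in each library (horizontal axis). SLC7A5 dips lowest in cynaroside 1, while SLC1A5 and its neighbours, from ADGRE5 at 0.061 to HNRNPK at 0.087, are lowest in the FEBJ libraries.

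SLC3A2, the heavy chain that SLC7A5 needs at the membrane, had no exon on the other strand and could be read only from its own row. That row stood at 28.7 and 30.6 CPM with FEBJ, 7.55 and 3.28 CPM with cynaroside, and 12.7 and 16 CPM with DMSO, from 11 to 108 counts. The FEBJ libraries were the highest and the cynaroside libraries the lowest. It rose with FEBJ by a log2 fold change of 1.03 ± 0.39 (edgeR, adjusted p = 0.027), where 26.0% of deposited rows were called higher. It fell with cynaroside, at -1.59 ± 0.47 (edgeR, adjusted p = 0.00764), where 21.1% of deposited rows were called lower. Of the 3892 deposited coding rows without an exon on the other strand, as this one, 12.0% were called higher with FEBJ, with a median of -1.03. With cynaroside 39.1% of those rows were called lower, with a median of -1.41, so the fall of SLC3A2 lay near that median. Whether this row follows the RNA of SLC3A2 was not tested. Between FEBJ and cynaroside SLC3A2 was higher with FEBJ, at 2.63 ± 0.46 (edgeR, adjusted p = 2.79e-05), where 21.5% of deposited rows were called higher. The rise with FEBJ was lost when either FEBJ or either DMSO library was left out (adjusted p = 0.0555 to 0.181) with DESeq2 (0.062), with upper-quartile scaling (0.0513) and with no filter (0.0709). The fall with cynaroside was lost without cynaroside 2 (-0.94, adjusted p = 0.202).

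The other genes of amino acid handling were listed as transporters, enzymes, sensors and regulators, 178 in all, of which 23 could be tested in the opposite-strand reading. With FEBJ 6 of the 23 rose, 7 fell and 10 did not pass the test, with a median log2 fold change of -0.18 against 0.05 over all 1443 genes, of which 35.8% were called higher and 34.7% lower. With cynaroside 3 rose, 5 fell and 15 did not pass, with a median of 0.01 against -0.01 over all genes, of which 20.2% were called higher and 21.6% lower. Between FEBJ and cynaroside 8 were higher with FEBJ, 8 lower and 7 did not pass, with a median of -0.15 against 0.03 over all genes, of which 35.3% were called higher and 34.2% lower. The shares over all genes also stand behind the counts of the single lists in this reading, each of which rests on 6 tested genes or fewer.

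Among transporters, the lists of system L genes and of the SLC1 family had no member that could be tested in this reading. SLC38A10, a relative of the sodium-coupled neutral amino acid transporters, stood at 340.9 and 401.6 CPM with FEBJ, 1054 and 983.3 CPM with cynaroside, and 954 and 822.9 CPM with DMSO. It fell with FEBJ, at -1.25 ± 0.09 (edgeR, adjusted p = 6.9e-38), and with cynaroside it gave 0.20 ± 0.09 (edgeR, adjusted p = 0.0592). Its log2 difference between FEBJ and cynaroside was -1.44 ± 0.09 (edgeR, adjusted p = 3.55e-50). In this reading only the FEBJ libraries lay below DMSO, unlike both SLC7A5 and SLC1A5, while SLC38A10's own row rose with cynaroside (1.28 ± 0.24, edgeR, adjusted p = 6.8e-05).

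Of 5 testable enzymes of glutamine-linked, serine, proline and purine metabolism, 2 rose and 2 fell with FEBJ, and 1 rose and none fell with cynaroside. The mitochondrial aspartate aminotransferase GOT2 fell with FEBJ, with a mean of 294 CPM against 679 CPM with DMSO (-1.21 ± 0.11, edgeR, adjusted p = 8.3e-27), and stood at 684 CPM with cynaroside. PYCR1, the last enzyme of proline synthesis, fell with FEBJ, at 565 CPM against 942 CPM with DMSO (-0.74 ± 0.09, edgeR, adjusted p = 8.32e-17), and stood at 1030 CPM with cynaroside. SHMT2, which makes glycine from serine in mitochondria, rose with FEBJ, at 417 CPM against 283 CPM with DMSO (0.56 ± 0.13, edgeR, adjusted p = 5.85e-05). GOT1, the cytosolic aminotransferase, was read from a divergent transcript and rose with FEBJ to 42.25 and 34.46 CPM, against 6.10 and 6.97 CPM with DMSO (2.52 ± 0.64, edgeR, adjusted p = 1.75e-04). In this reading none of these 4 enzymes passed the test with cynaroside against DMSO, and each differed between FEBJ and cynaroside (edgeR, highest adjusted p = 0.00173, for SHMT2). PPAT, which starts purine synthesis with glutamine, rose with cynaroside (0.38 ± 0.16, edgeR, adjusted p = 0.04), a call lost without cynaroside 1 (0.152), DMSO 1 (0.0768) or DMSO 2 (0.23) by adjusted p, with DESeq2 (0.0969), with all non-coding rows (0.0513) and with either other filter (0.0558 and 0.052).

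The own rows of these enzymes gave other calls, from few counts. SHMT2's own row had 8.75 and 3.4 CPM with FEBJ, 1.37 and 3.02 CPM with cynaroside, and 24.7 and 20.2 CPM with DMSO. It fell with FEBJ (-1.92 ± 0.52, edgeR, adjusted p = 0.00329), against the rise above, a call lost without FEBJ 2 (adjusted p = 0.0616), and with cynaroside (-3.16 ± 0.60, edgeR, adjusted p = 9.77e-05). GOT1's own row had 0.796 and 2.55 CPM with FEBJ, 0 and 1.51 CPM with cynaroside, and 17 and 8.27 CPM with DMSO. It also fell with FEBJ (edgeR, adjusted p = 0.00593), against the rise above, and with cynaroside (edgeR, adjusted p = 0.0023), and both calls were lost without DMSO 1 (0.171 and 0.0785). PYCR1's own row had 1.59 and 1.13 CPM with FEBJ, 19.2 and 22.4 CPM with cynaroside, and 0.707 and 5.83 CPM with DMSO, and rose with cynaroside (2.58 ± 0.64, edgeR, adjusted p = 0.00195). GOT2's own row did not pass with FEBJ or cynaroside (edgeR, adjusted p = 0.0537 and 0.0813).

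Of branched-chain catabolism, 2 of 16 listed genes could be tested. BCAT1, the cytosolic transaminase that takes the amino group off leucine, stood at 51.09 and 54.16 CPM with FEBJ, 103.1 and 98.69 CPM with cynaroside, and 217.7 and 197.4 CPM with DMSO. Its groups kept the order seen for SLC1A5. On the log2 scale BCAT1 fell by 1.97 ± 0.22 with FEBJ (edgeR, adjusted p = 2.27e-18) and by 1.04 ± 0.21 with cynaroside (edgeR, adjusted p = 3e-06). It was lower with FEBJ than with cynaroside by 0.93 ± 0.23 (edgeR, adjusted p = 1.36e-04). MCCC1, a subunit of the carboxylase further down the leucine pathway, rose with FEBJ, at 249 CPM against 63.6 CPM with DMSO (1.96 ± 0.21, edgeR, adjusted p = 5.56e-20), and stood at 66.8 CPM with cynaroside.

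Of 39 listed genes of mTORC1 and amino acid sensing, 6 were tested, of which 1 rose with FEBJ and none fell, and 1 rose and 1 fell with cynaroside. Over all genes, 35.8% were called higher and 34.7% lower with FEBJ, and 20.2% higher and 21.6% lower with cynaroside. RPS6KB2, an S6 kinase that mTORC1 activates, stood at 2427 and 2374 CPM with FEBJ, 1260 and 1134 CPM with cynaroside, and 1029 and 1043 CPM with DMSO. It rose with FEBJ (1.21 ± 0.06, edgeR, adjusted p = 2.81e-78), and its rise with cynaroside (0.20 ± 0.07, edgeR, adjusted p = 0.00916) was lost without cynaroside 1 (0.0873) or DMSO 1 (0.0669) by adjusted p. SEH1L, part of the complex that relieves the brake on mTORC1, was read only from CEP192-DT, a transcript named for another gene. It fell with cynaroside (-0.57 ± 0.13, edgeR, adjusted p = 3.34e-05) but was not called with the scaling of all deposited rows (-0.11, adjusted p = 0.505). MTOR, the kinase itself, did not pass against DMSO with FEBJ or cynaroside (edgeR, adjusted p = 0.106 and 0.21), nor did its adaptor RPTOR (edgeR, adjusted p = 0.0793 and 0.158). MTOR's own row fell with FEBJ (-1.87 ± 0.54, edgeR, adjusted p = 0.00494), a call lost without DMSO 1 (adjusted p = 0.0949). In the opposite-strand reading both were lower with FEBJ than with cynaroside on the log2 scale, MTOR by 0.70 ± 0.21 (edgeR, adjusted p = 0.00183) and RPTOR by 0.52 ± 0.14 (edgeR, adjusted p = 6.12e-04). DEPTOR, an inhibitor of mTOR, was higher with FEBJ than with cynaroside (edgeR, adjusted p = 0.00682), at 9.83 and 12.7 CPM with FEBJ, 0 and 1.02 CPM with cynaroside, and 11.2 and 2.09 CPM with DMSO.

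In the list of the ATF4 response, CEBPB, a transcription factor that partners ATF4, stood at 797.8 and 744.8 CPM with FEBJ, 316.9 and 357.6 CPM with cynaroside, and 749.6 and 686.2 CPM with DMSO. It fell with cynaroside (-1.07 ± 0.10, edgeR, adjusted p = 1.44e-22) and gave 0.10 ± 0.10 with FEBJ (edgeR, adjusted p = 0.335). It was higher with FEBJ than with cynaroside, at 1.17 ± 0.10 (edgeR, adjusted p = 5.08e-28). Of 2 tested kinases in that list, EIF2AK2, read from ARL14EPP1, fell with FEBJ (-0.84 ± 0.24, edgeR, adjusted p = 9.39e-04), a call lost without DMSO 1, at -0.57. EIF2AK3 rose with cynaroside (0.41 ± 0.17, edgeR, adjusted p = 0.0375), a call lost without cynaroside 2 (0.191), DMSO 1 (0.104) or DMSO 2 (0.184) by adjusted p, with DESeq2 (0.108) and with no filter (0.0522). CARS1, which charges tRNA with cysteine, rose with FEBJ (0.44 ± 0.13, edgeR, adjusted p = 7.28e-04), a call lost without FEBJ 1 (adjusted p = 0.0572), and 2 other aminoacyl-tRNA synthetases did not pass.

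Of 18 named regulators of the transporters, 3 were tested. HIF1A, read from HIF1A-AS1, stood at 495.2 and 469.1 CPM with FEBJ, 403.6 and 417.1 CPM with cynaroside, and 743.5 and 916.4 CPM with DMSO. It fell with FEBJ (-0.79 ± 0.10, edgeR, adjusted p = 3.91e-14) and with cynaroside (-1.02 ± 0.10, edgeR, adjusted p = 8.31e-21). HIF1A's own row had 13.1 and 15 CPM with FEBJ, 153 and 157.3 CPM with cynaroside, and 59 and 78.8 CPM with DMSO. It fell with FEBJ too (-2.29 ± 0.21, edgeR, adjusted p = 4.01e-10) but rose with cynaroside (1.16 ± 0.17, edgeR, adjusted p = 3.62e-06), so the readings went opposite ways with cynaroside. YAP1, a coactivator of the Hippo pathway, fell with FEBJ, at 719 CPM against 2136 CPM with DMSO (-1.57 ± 0.07, edgeR, adjusted p = 2.64e-119). With cynaroside YAP1 stood at 1844 CPM (-0.21 ± 0.06, edgeR, adjusted p = 0.00162), a fall that turned into a rise with the scaling of all deposited rows (0.25, adjusted p = 0.00352). Its relative WWTR1 rose with FEBJ (0.47 ± 0.15, edgeR, adjusted p = 0.00417), a call lost without FEBJ 1 (0.0735) or DMSO 1 (0.0591) by adjusted p.

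**Figure D4:**
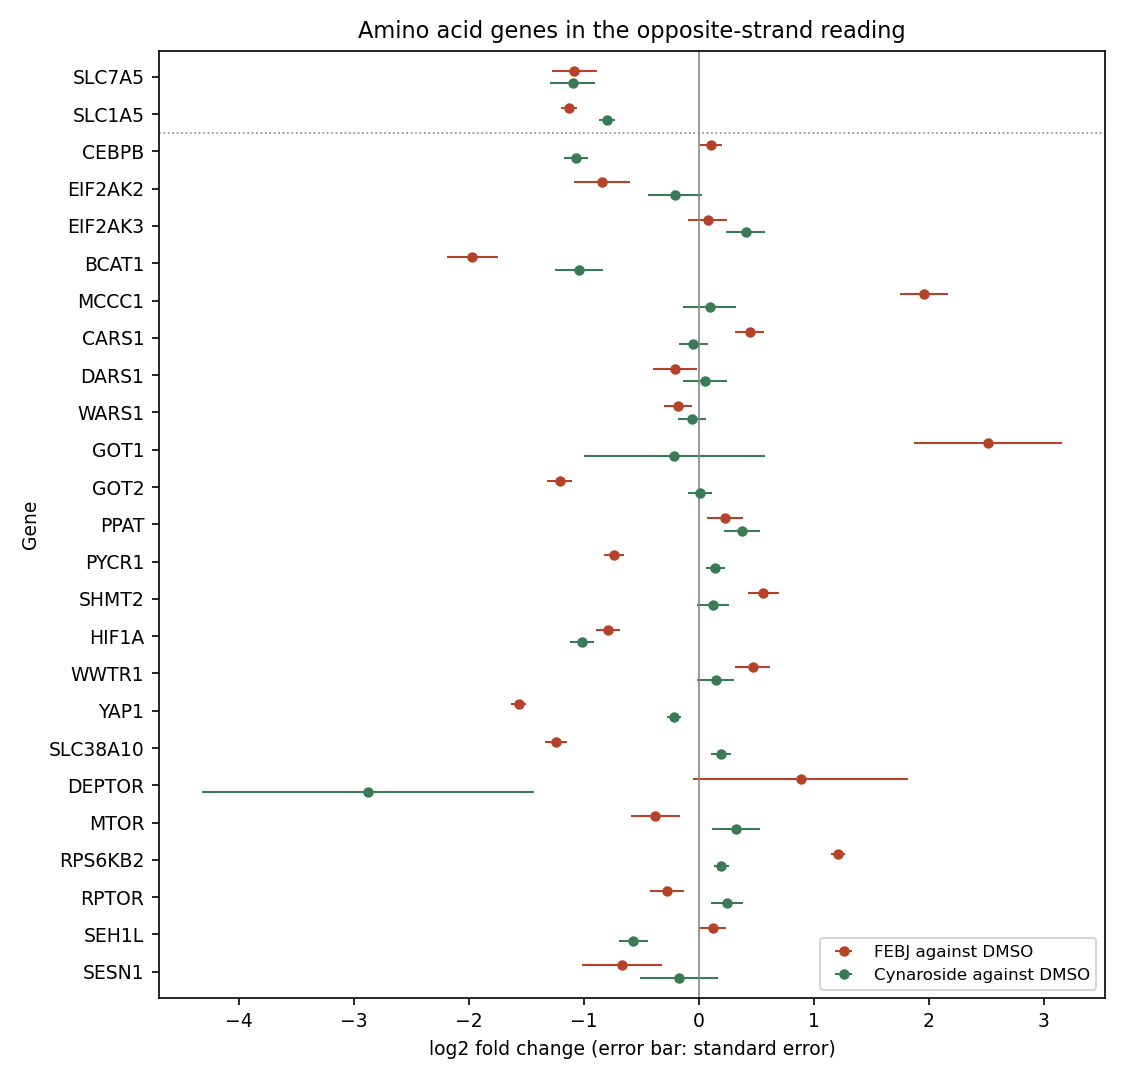
Log2 fold change from DMSO with FEBJ (red) and cynaroside (green) for SLC7A5, SLC1A5 and the 23 listed genes tested in the opposite-strand reading; bars are standard errors, and the DEPTOR point for cynaroside rests on levels of 0 and 1.02 CPM. BCAT1 and HIF1A (read from HIF1A-AS1) lie to the left for both treatments as the transporters do, while MCCC1 (1.96) and RPS6KB2 (1.21) lie to the right with FEBJ.

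Read from their own rows, 112 of the listed genes could be tested. With FEBJ 27 rose, 38 fell and 47 did not pass, with a median log2 fold change of -0.56 against -0.06 over all rows, where 26.0% were called higher and 24.8% lower. With cynaroside 18 rose, 41 fell and 53 did not pass, with a median of -1.01 against 0.02, where 24.3% were called higher and 21.1% lower. The 3892 deposited coding rows without an exon on the other strand had medians of -1.03 and -1.41 in these comparisons, further below 0 than the lists. Of these rows 12.0% were called higher and 34.6% lower with FEBJ, and 8.48% higher and 39.1% lower with cynaroside. Of the 20 cytosolic aminoacyl-tRNA synthetases 4 rose and 10 fell with FEBJ, and 2 rose and 15 fell with cynaroside. TARS1, which charges tRNA with threonine, stood at 15.5 and 7.09 CPM with FEBJ, 1.37 and 4.29 CPM with cynaroside, and 55.8 and 61.3 CPM with DMSO, and fell with FEBJ (edgeR, adjusted p = 1.98e-06) and with cynaroside (edgeR, adjusted p = 1.15e-08).

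The readings could be set side by side for 19 of the 23 listed genes. With FEBJ 5 were called in both, of which BCAT1, HIF1A and WWTR1 had the same direction and GOT1 and SHMT2 the other. With cynaroside 8 were called from the own row but only 2 in both readings, BCAT1 in the same direction and HIF1A in the other. Between FEBJ and cynaroside 10 were called from the own row and 5 in both readings, CEBPB, EIF2AK2, PYCR1, SEH1L and SLC38A10, all in the same direction. The own-row call of BCAT1 with FEBJ (edgeR, adjusted p = 0.0292) was lost without any 1 of the FEBJ or DMSO libraries (adjusted p = 0.0509 to 0.211). A further 3 genes were called with FEBJ from the own row alone, a rise of EIF2AK3 (edgeR, adjusted p = 9.09e-04), a rise of SEH1L (edgeR, adjusted p = 0.00225) and the fall of MTOR given above.

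Of the 11 system L genes and light chains, 6 could be tested from their own rows, of which 2 rose and 1 fell with each treatment. Over all deposited rows 26.0% were called higher and 24.8% lower with FEBJ, and 24.3% higher and 21.1% lower with cynaroside. SLC7A6, a light chain in the family of SLC7A5, had 1216 and 1310 CPM with FEBJ, 480.9 and 518 CPM with cynaroside, and 188 and 237.3 CPM with DMSO, so both treatments lay above DMSO. It rose with FEBJ (2.56 ± 0.09, edgeR, adjusted p = 3.1e-19) and with cynaroside (1.23 ± 0.09, edgeR, adjusted p = 2.17e-11). SLC3A1, the heavy chain of the cystine carrier, had 299.2 and 320.8 CPM with FEBJ, 712.8 and 768 CPM with cynaroside, and 393.4 and 405.2 CPM with DMSO. It rose with cynaroside (0.89 ± 0.08, edgeR, adjusted p = 1.44e-09) and fell with FEBJ (-0.36 ± 0.09, edgeR, adjusted p = 8.35e-04), a call lost without FEBJ 1 (adjusted p = 0.112). Exons of SLC7A6 overlap those of SLC7A6OS, and exons of SLC3A1 those of PREPL, on the other strand, so these reads cannot be assigned to a gene.

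The own rows of MLX and EIF2AK1 overlap another gene as well. MLX, a partner of MYC-family factors that overlaps PSMC3IP, had 2520 and 2485 CPM with FEBJ, 499.5 and 523.3 CPM with cynaroside, and 375 and 382.9 CPM with DMSO, and rose with FEBJ (2.72 ± 0.07, edgeR, adjusted p = 1.1e-22). EIF2AK1, another kinase in the list of the ATF4 response, overlaps AIMP2. It had 357.7 and 368.4 CPM with FEBJ, 176.3 and 180.2 CPM with cynaroside, and 167.9 and 156.8 CPM with DMSO, and rose with FEBJ (1.16 ± 0.10, edgeR, adjusted p = 1.06e-10). PPP1R15A, a phosphatase subunit that ends the ATF4 response, has no exon opposite and had 37 and 42.8 CPM with FEBJ, 0 and 0.504 CPM with cynaroside, and 15.9 and 9.72 CPM with DMSO. It rose with FEBJ (edgeR, adjusted p = 5.63e-04) and fell with cynaroside (edgeR, adjusted p = 2.57e-06). Of 19 genes of the ATF4 response tested from own rows, 6 rose and 4 fell with FEBJ, and 1 rose and 3 fell with cynaroside. Over all deposited rows 26.0% were called higher and 24.8% lower with FEBJ, and 24.3% and 21.1% with cynaroside. With FEBJ CHAC1 rose (4.51 ± 0.90, edgeR, adjusted p = 1.36e-04), while the kinase EIF2AK4 fell (-2.77 ± 0.31, edgeR, adjusted p = 1.29e-08). Like PPP1R15A, CHAC1 and EIF2AK4 have no exon opposite. Of the 3892 coding rows of that class, 12.0% were called higher and 34.6% lower with FEBJ, with a median of -1.03. With cynaroside 8.48% of them were called higher and 39.1% lower, with a median of -1.41.

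SLC7A1, a carrier of arginine and lysine from the family of SLC7A5, had 9.95 and 9.08 CPM with FEBJ, 6.86 and 6.55 CPM with cynaroside, and 25.8 and 26.2 CPM with DMSO in its own row. It fell with FEBJ (-1.45 ± 0.41, edgeR, adjusted p = 0.00416) and with cynaroside (-1.96 ± 0.44, edgeR, adjusted p = 6.59e-04). The rows of SLC7A1, SLC1A4, ATF4 and MYC have no exon on the other strand. Coding rows of that class had medians of -1.03 with FEBJ and -1.41 with cynaroside. Of them 34.6% were called lower and 12.0% higher with FEBJ, and 39.1% lower with cynaroside. A fall by itself thus does not set SLC7A1, ATF4 or MYC apart. SLC1A4, the nearest relative of SLC1A5, had 25.9 and 19.6 CPM with FEBJ, 11 and 15.9 CPM with cynaroside, and 12 and 6.32 CPM with DMSO. It rose with FEBJ (1.33 ± 0.43, edgeR, adjusted p = 0.0115), a call lost without FEBJ 1 (0.0902) or DMSO 2 (0.172) by adjusted p. ATF4 had 20.3 and 16.4 CPM with FEBJ, 6.17 and 3.53 CPM with cynaroside, and 17.7 and 28.9 CPM with DMSO. It fell with cynaroside (-2.39 ± 0.47, edgeR, adjusted p = 1.77e-04) and gave -0.36 ± 0.39 with FEBJ (edgeR, adjusted p = 0.456). MYC had 1.99 and 2.27 CPM with FEBJ, 0 and 0.504 CPM with cynaroside, and 5.3 and 5.83 CPM with DMSO. Its fall with cynaroside (-3.85 ± 1.24, edgeR, adjusted p = 0.0129) was lost when either DMSO library was left out, at -3.96 and -3.81. With FEBJ MYC gave -1.37 ± 0.95 (edgeR, adjusted p = 0.237).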

How the data were processed

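Total RNA of 6 LX-2 libraries, 2 per group as labelled, was measured. The authors deposited raw counts per gene for each library. Per the submitters' processing notes, CASAVA 1.7, HISAT2, HTSeq 0.12.4, DESeq2 1.38.0 and the hg19 build were used; the kit, strand setting and annotation release are not given in the sources used here. Each table held 62754 gene rows and 5 summary rows. Reads in no feature made up 87.4 to 88.3% of the counts, and library sizes excluded the summary rows. Identifiers matched 62700 symbols and 58261 genes of GENCODE 29 on GRCh38, which gave overlaps and positions. In the opposite-strand reading, 1828 non-coding rows holding at least as many counts as the gene's own row were summed to 1699 genes.

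Counts were fitted with edgeR 4.0.16 (R 4.3.3): filterByExpr, TMM, 3 group means, 3 residual degrees of freedom, quasi-likelihood tests, Benjamini-Hochberg adjustment and a threshold of 0.05. CPM are counts over the TMM library size, times 1000000. The 2 genes, the lists and the naming rule (from each list up to 3 genes per direction with the smallest p, up to 2 for own rows, of which the text names only some, and 5 nearest patterns) were chosen with earlier results of these data known; 1 listed gene is not reported here. Alternatives were other scalings, filters, row definitions, left-out libraries, a replicate block and DESeq2 1.42.0. Over 11004 to 13577 deposited rows per group, counts of libraries within a group differed by more than sampling noise (mean chi-square per row 3.03 to 3.19). This was not computed for the opposite-strand reading. The script was tested on simulated data.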

Additional observations from a re-analysis of the deposited data

How the results depend on the processing

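SLC1A5 stayed lower with FEBJ than with cynaroside under all 18 alternatives run, at -0.58 to -0.29 on the log2 scale. The SLC7A5 difference between FEBJ and cynaroside, 0.01, was never called and changed sign under 11 of 18 alternatives. It was -0.08 with upper-quartile scaling, -0.24 with the scaling of all deposited gene rows, -0.001 with no filter, -0.00075 with a filter of 1 CPM, -0.0076 with only the 4 libraries compared, -0.12 with protein-coding opposite rows also used, -0.01 with all non-coding rows, -0.07 with an overlap of 200 bp, -0.23 with the row among deposited rows, and -0.19 to 0.28 with a library left out.

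In the opposite-strand reading both genes stayed below DMSO under every alternative run. For FEBJ, SLC7A5 was at -1.16 (upper quartile), -0.87 (all deposited rows), -1.12 (4 libraries; all non-coding rows), -1.18 (coding rows), -1.15 (200 bp) and -1.12 to -1.06 with a library left out. SLC1A5 was at -1.20 (upper quartile; 200 bp), -0.92 (all deposited rows) and -1.22 (coding rows). For cynaroside, SLC7A5 was at -0.63 (all deposited rows) and -1.37 to -0.92 with a library left out, and SLC1A5 at -0.34 (all deposited rows), -0.78 (4 libraries) and -0.76 (coding rows). The ratio of SLC7A5 to SLC1A5 between FEBJ and cynaroside was -1.82 from own rows, where counts were 0 to 126, and 0.19 to 0.64 with a treated library left out, an alternative chosen after seeing the data. With coding rows, calls numbered 1592 (FEBJ), 1018 (cynaroside) and 1576 (FEBJ against cynaroside) because more genes were read, and listed genes called with FEBJ numbered 22 in place of 13. With the scaling of all deposited rows, 18 listed genes were called with cynaroside in place of 8, and YAP1 gave 0.25. The cause was not tested.

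Replicate numbers shared between groups did not pair the libraries: deviations of same-numbered libraries correlated at -0.075 to 0.034 across genes. A fit with the replicate block called 1011, 586 and 1000 genes, against 1017, 602 and 1003, gave 0.03 for SLC7A5 and -0.33 for SLC1A5 between FEBJ and cynaroside, and changed 1 call of a named gene, the fall of BCAT1's own row with FEBJ (adjusted p = 0.0572 against 0.0292). Depth limits SLC7A5 most, with 54 counts in cynaroside 1.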
